A study of Mus musculus with 18 samples.

Results

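The comparison described here sets leukemic thymus of SCL/LMO1 mice against normal thymus of wild-type mice, gene by gene. It used 9 of the 18 arrays of the study, 6 from SCL/LMO1 mice and 3 from wild-type mice, with 1 array per mouse, and each of 20672 genes was represented by its brightest probe set over the 18 arrays. The genotype label SCL-LMO1 names the 2 engineered genes, SCL (encoded by Tal1) and LMO1, and the tumours were labelled as cortical T-ALL (acute lymphoblastic leukemia of T cells) of a type other than DN1/DN2, the earliest thymocyte stages, with cells carrying CD4 and CD8. The remaining 9 arrays came from spleens of another leukemia genotype, Idh2R140Q/NHD13, and were used here only to choose probe sets and in alternative fits. Both groups compared are whole thymus, so organ does not differ between them. The promoters that drive the transgenes, the strain, and the age and sex of the mice are not given in the labels.

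SCL is a basic helix-loop-helix transcription factor and LMO1 a LIM-domain adaptor protein. In human T-ALL they are switched on in thymocytes, where they join a complex with LDB1, GATA3 and the E proteins encoded by Tcf3 and Tcf12, and the E proteins then no longer drive their normal targets. Activating mutations of NOTCH1, the receptor that commits progenitors to the T lineage, and high MYC are the best known partners of this lesion. A normal thymus is mostly CD4+CD8+ thymocytes held in a mesh of epithelium, with dendritic cells, macrophages, B cells and vessels, and the organ lies in fat.

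Some arrays stood apart from their groups. Wild-type mouse 627 had by far the most fat RNA, and the average of 11 brown adipocyte genes was 8.20, 10.81 and 6.40 log2 units in wild-type mice 623, 627 and 631. SCL/LMO1 mouse 3767 kept more epithelial transcripts than the other leukemias, and over the 20672 genes its array differed from wild-type 631 by a root mean square of 0.577, less than wild-type 627 and 631 differed from each other (0.717). SCL/LMO1 mice 7114/1 and 7114/3 share the first part of their number and were the closest pair of all, at 0.468. Y-linked genes such as Ddx3y were seen in 5 of 6 SCL/LMO1 mice and in 0 of 3 wild-type mice, while mouse 6889/1 had a Ddx3y signal of 3.58 and an Xist signal of 13.03. Sex thus goes with genotype in 8 of 9 mice, and the part of sex in the differences was not tested. Array medians over all 45101 probe sets lay between 5.916 and 6.009, which does not show how level the 20672 gene values were. There were no calls of detection, and precision rests on how many arrays there are. The labels do not say that mice came from separate litters, and p-values measure the spread between these mice.

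Leukemic and normal thymus differed widely. Of 20672 genes, 3558 passed an adjusted p under 0.05 in limma (17.2%), of which 1701 were higher (8.23% of all genes) and 1857 lower (8.98%) in the leukemias. Differences of at least 2-fold were mostly falls, with 1251 genes lower (6.05%) and 374 higher (1.81%). The groups did not overlap for 11.3% of all genes in the upward and 9.56% in the downward direction. The median log2 difference (SCL/LMO1 minus wild type) over all genes was 0.08. It was 0.30 once each array was centred on its median over these genes, when 81.2% of calls were higher in place of 47.8%. Centring raised the difference of every gene alike, that of Dtx1 from 4.18 to 4.40. Directions below are on the deposited scale, against its median of 0.08. Without wild-type mouse 623 there were 662 genes higher and 921 lower, and without wild-type mouse 627 there were 565 and 1079. Without SCL/LMO1 mouse 7114/3 or 6466/4 the number higher was 1077 or 1068. In all 9 fits that left out 1 array, 433 of the higher and 804 of the lower genes passed. A fit in which the spleen arrays also entered the estimate of spread, called the fit with all 3 groups below, gave 1042 higher and 1348 lower. In it spleen mice 546 and 550 were averaged into 1 column. With all 18 arrays entered separately there were 1154 higher and 1435 lower.

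**Figure D1:**
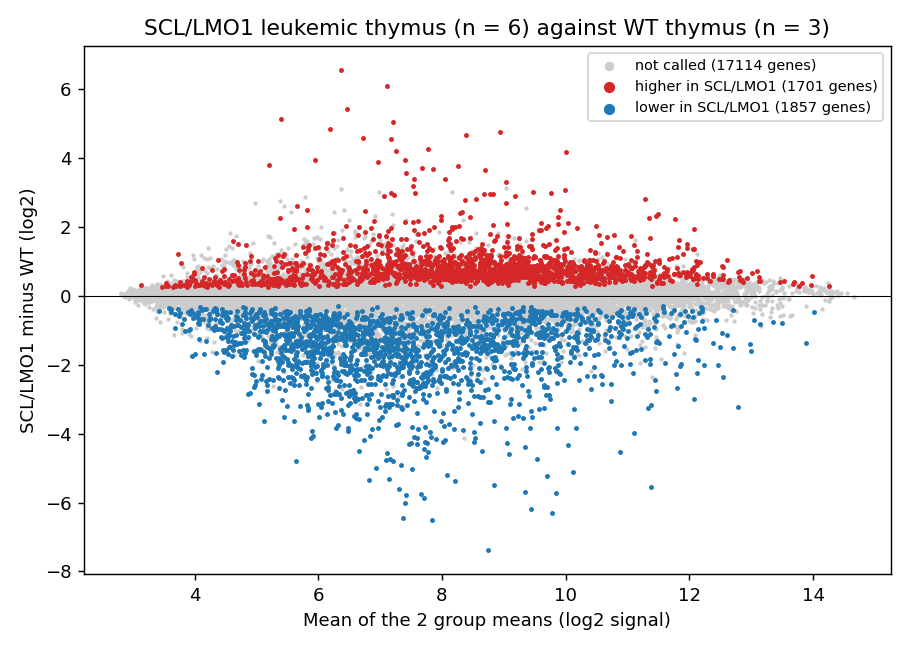
Log2 difference between SCL/LMO1 leukemic thymus (6 mice) and wild-type thymus (3 mice) against the mean log2 signal of both groups, 1 point per gene. The 1701 higher genes are red and the 1857 lower genes blue, and the lower genes reach further from 0.

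Of the 2 engineered genes, Lmo1 rose in the leukemias and Tal1 did not pass the test on the deposited scale. Lmo1 signals were 6.09, 7.27 and 5.79 log2 units in wild-type mice 623, 627 and 631. In the leukemias they were 10.70 in mouse 3767, 11.18 in 7114/3, 7.37 in 6889/1, 10.46 in 6466/4, 9.73 in 6883/2 and 11.45 in 7114/1. The groups did not overlap, but mouse 6889/1 lay only just above wild-type 627. The log2 difference was 3.77 (SE 0.83, adjusted p = 0.0171), and without wild-type mouse 623 the adjusted p was 0.0681. Tal1 was read at 5.22, 5.48 and 5.43 in wild-type mice and at 5.48 to 5.63 (median 5.59) in leukemias, with overlap and a difference of 0.20 (adjusted p = 0.131). It passed after quantile normalization (0.285, adjusted p = 0.0362) and with array medians centred (0.423, adjusted p = 0.0137). Each gene has 1 probe set on the array, the labels do not say what part of Tal1 the transgene holds, and a probe set outside that part would not read it.

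Of 18 genes for SCL, LMO proteins, E proteins and their partners, 4 were higher and 0 lower, 22.2% called against 17.2% of all genes, with a median of 0.19 against 0.08 for all genes. The 4 are Lmo1, Ssbp3, Tcf3 and Tcf12. Lmo1 is an engineered gene, so the called share partly reflects the design. Ssbp3, which stabilises LDB1, was 9.06, 8.91 and 9.61 in wild-type mice and 9.87 to 10.54 (median 10.34) in leukemias, a rise of 1.11 (SE 0.18, adjusted p = 0.00643). The E protein genes Tcf3 and Tcf12 were higher by 0.67 (adjusted p = 0.0296) and 0.47 (adjusted p = 0.0476), with no overlap of the groups. Those 2 calls depended on single arrays: Tcf3 lost its call without any 1 of 5 arrays (adjusted p 0.0516 to 0.115; wild-type 623 and 627, leukemias 7114/3, 6466/4 and 6883/2). Tcf12 lost its call without any 1 of 7 arrays, all but wild-type 631 and leukemia 3767 (adjusted p 0.076 to 0.145). Without wild-type 623 or 627, or without 627 and 6889/1 together, 1, 2 and 1 genes of the list were higher, and in that last case Ssbp3 did not pass (0.0515).

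Among 15 genes known as targets of this complex in human T-ALL, 1 was higher and 1 lower (median 0.17), and with array medians centred 4 were higher. The called share, 13.3%, was below the 17.2% of all genes. Trib2, a pseudokinase, rose from 10.39, 9.74 and 10.52 in wild-type mice to a range of 12.06 to 12.71 (median 12.60) in leukemias, a difference of 2.26 (SE 0.21, adjusted p = 0.00118), with a wide gap between the groups. The 3 probe sets of Trib2 rose by 0.43 to 2.26, and their mean by 1.53. Aldh1a2, an enzyme of retinoic acid synthesis, was lower, with a difference of -2.27 (adjusted p = 0.0126), a call lost without wild-type 623 or 627 (adjusted p 0.0574 to 0.0591). The human target genes Myb, Gata3 and Runx1 did not pass.

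Leaving out sex-linked genes, antigen receptor segments and unnamed symbols, most of the 15 largest rises were genes that normal thymus gave at low signal, with Dtx1 and Rhox4b among the exceptions. Adamts20, a secreted metalloprotease, had the largest of these, and it was 3.89, 3.75 and 3.62 in wild-type mice and 7.05 to 10.01 (median 8.58) in leukemias. That is a difference of 4.85 (SE 0.62, adjusted p = 0.00255), and the lowest leukemia, mouse 3767, was still far above every wild-type mouse. Bst1, the surface ADP-ribosyl cyclase CD157 of bone marrow stroma and early lymphocytes, was 7.02, 7.33 and 5.29 in wild-type mice and 10.79 to 12.03 (median 11.34) in leukemias, a difference of 4.77 (SE 0.45, adjusted p = 0.00114). Bst1 was also the only called gene of 7 lymph node stroma genes (median -0.23), 14.3% of that list against 17.2% of all genes. Dtx1 had the smallest adjusted p of these rises and is described with the Notch genes. Wdr25, a gene for a WD-repeat protein, rose from 5.83, 6.06 and 6.25 to a range of 9.68 to 11.36 (median 10.80), a difference of 4.67 (adjusted p = 0.000344). The other large rises also had a gap between groups. They were Myrfl (4.58, adjusted p = 0.000505), Clvs1 (4.56, adjusted p = 0.00145), the phospholipid flippase gene Atp8a2 (4.27, adjusted p = 0.00228) and Elavl4, a neuronal RNA-binding protein gene (4.22, adjusted p = 0.00255). Elavl4 was 4.87, 5.35 and 5.24 in wild-type mice and 7.78 to 10.57 (median 9.41) in leukemias, and its 3 probe sets rose by 3.52 to 5.33. Further down came Pheta2 (3.95, adjusted p = 0.00278), Spsb4 (3.88, adjusted p = 0.00223), Lmo1, Sidt1 (3.70, adjusted p = 0.00142), the X-linked homeobox gene Rhox4b (3.67, adjusted p = 0.00324), Mpp4 (3.55, adjusted p = 0.00241) and F2, the gene of prothrombin (3.40, adjusted p = 0.00529). Except for Lmo1, these rises passed in each of the 9 fits that left out 1 array, and Mpp4 did not pass in the fit with all 3 groups (adjusted p 0.122). Clvs1 and Dtx1 have a dimmer probe set that rose by only 0.16 and 0.53.

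**Figure D2:**
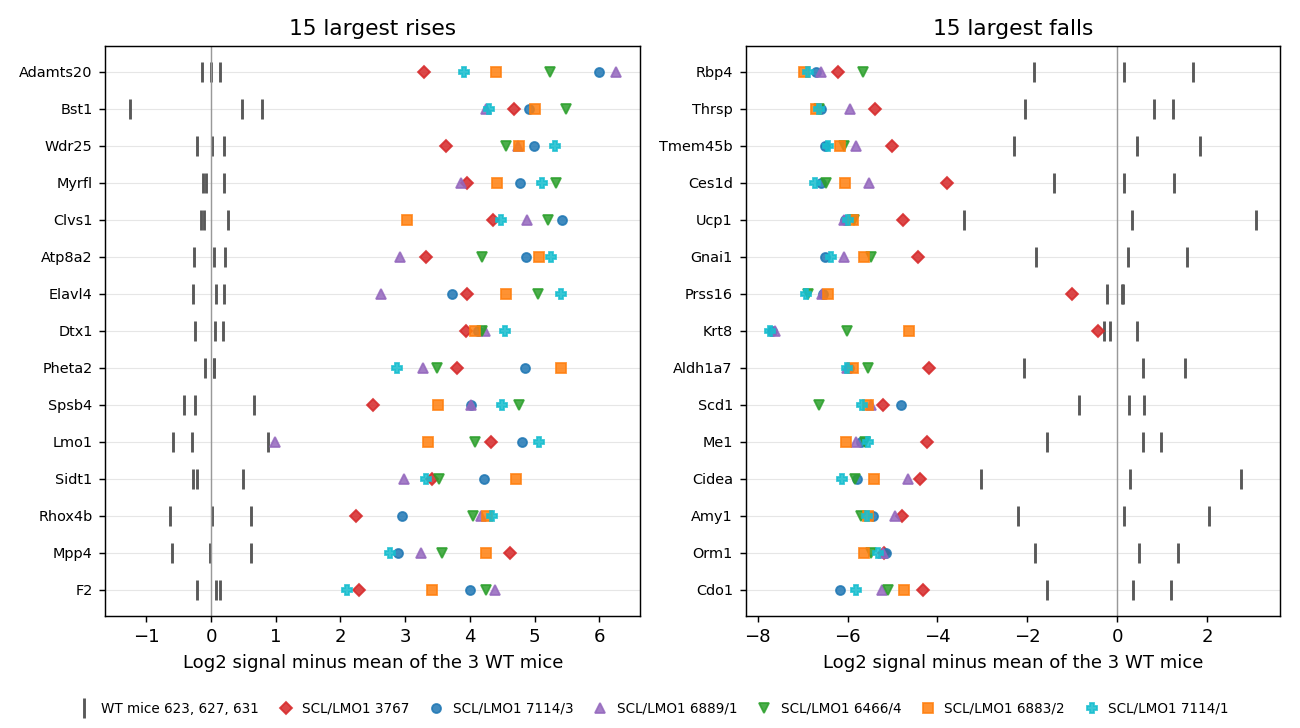
The 15 genes with the largest rises (left) and the 15 with the largest falls (right) without overlap of the groups, sex-linked genes, receptor segments and unnamed symbols left out, as log2 signal minus the mean of the 3 wild-type mice. Bars are the wild-type mice and symbols the 6 leukemias; mouse 3767 (red diamonds) lies beside the wild-type mice for Prss16 and Krt8, and mouse 6889/1 (purple triangles) beside them for Lmo1.

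The promoters of the first 4 of these rises that the RefSeq promoter table holds are printed because these genes rose together in all 6 leukemias. Each runs from 250 bases before to 50 after the start of transcription, 5′ to 3′ on the gene's strand, in GRCm38.p6. Capitals mark the E-box CANNTG, the class of site bound by SCL and E proteins, and the RBPJ motif TGGGAA of Notch signalling, on either strand. The positions are chr15:94404301-94404600 (minus strand) for Adamts20, chr4:110351862-110352161 (minus) for Elavl4, chr5:120711620-120711919 (minus) for Dtx1 and chr15:82340602-82340901 (plus) for Pheta2.
Adamts20: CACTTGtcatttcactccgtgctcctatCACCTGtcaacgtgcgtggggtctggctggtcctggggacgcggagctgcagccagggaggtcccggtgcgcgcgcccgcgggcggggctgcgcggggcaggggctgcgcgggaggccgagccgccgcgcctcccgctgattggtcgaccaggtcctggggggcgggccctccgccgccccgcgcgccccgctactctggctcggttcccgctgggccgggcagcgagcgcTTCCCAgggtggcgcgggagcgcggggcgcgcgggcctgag
Elavl4: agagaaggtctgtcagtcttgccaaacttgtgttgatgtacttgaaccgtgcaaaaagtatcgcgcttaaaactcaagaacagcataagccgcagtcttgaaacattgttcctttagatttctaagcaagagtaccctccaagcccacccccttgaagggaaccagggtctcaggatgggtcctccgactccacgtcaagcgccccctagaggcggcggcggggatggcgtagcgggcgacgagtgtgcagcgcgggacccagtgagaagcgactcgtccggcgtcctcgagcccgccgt
Dtx1: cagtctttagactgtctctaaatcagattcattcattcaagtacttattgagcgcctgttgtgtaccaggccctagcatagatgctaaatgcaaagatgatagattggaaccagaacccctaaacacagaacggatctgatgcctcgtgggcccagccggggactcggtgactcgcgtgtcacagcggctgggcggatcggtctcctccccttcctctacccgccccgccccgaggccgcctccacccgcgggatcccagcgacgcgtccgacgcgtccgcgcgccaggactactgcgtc
Pheta2: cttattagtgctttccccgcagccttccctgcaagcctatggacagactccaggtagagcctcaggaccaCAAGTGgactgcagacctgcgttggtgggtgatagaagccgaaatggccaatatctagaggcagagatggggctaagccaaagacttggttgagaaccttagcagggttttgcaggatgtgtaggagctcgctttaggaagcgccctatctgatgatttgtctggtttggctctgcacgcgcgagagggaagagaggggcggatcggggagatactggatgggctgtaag
Adamts20 holds 2 E-boxes and 1 RBPJ motif, which do not overlap, Pheta2 holds 1 E-box, and the windows of Elavl4 and Dtx1 hold neither motif. Elavl4 has 4 entries in the table and Pheta2 has 2, of which 1 is shown. An E-box occurs in 72.3% and the RBPJ motif in 25.6% of all 32851 promoters of this length, so these matches are a description of the letters and no more.

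Notch receptors and targets moved strongly, in both directions. Of 20 genes measured, 7 were higher and 4 lower, 55.0% of the list against 17.2% of all genes, and the median was 0.13. Dtx1, a ubiquitin ligase gene that Notch switches on in thymocytes, was 7.66, 7.97 and 8.10 in wild-type mice and 11.85 to 12.44 (median 12.06) in leukemias. Its difference was 4.18 (SE 0.14, adjusted p = 6.7e-06), and the 6 leukemias were alike (SD 0.20, n = 6). Notch1 itself was 10.24, 10.37 and 11.37 in wild-type mice and 12.52 to 13.10 (median 12.93) in leukemias, a rise of 2.22 (SE 0.25, adjusted p = 0.00173) with both probe sets alike. Notch3, a receptor that is also a Notch target, rose by 2.50 (SE 0.31, adjusted p = 0.00234) from 8.04, 8.63 and 9.31 to a range of 10.75 to 11.85 (median 11.11). Hes1, the repressor that is the best known Notch target, rose by 1.68 (SE 0.17, adjusted p = 0.00142) from 7.36, 7.87 and 7.62 to a range of 9.03 to 9.59 (median 9.25). For each of those 4 genes all 6 leukemias were above all 3 wild-type mice. The feedback inhibitor Nrarp and the repressor Heyl were higher by 1.51 (adjusted p = 0.0336) and 1.85 (adjusted p = 0.0346) without overlap. Among the leukemias Nrarp was lowest in mouse 6466/4 and Heyl in 3767 and 6466/4. Nrarp lost its call without any 1 of wild-type 623, 627 and 631 and leukemias 6889/1 and 7114/1 (adjusted p 0.051 to 0.109), and Heyl without any 1 array other than leukemias 3767 and 6466/4 (adjusted p 0.0558 to 0.119). The seventh higher gene, Myc, is described below.

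The genes of the list that fell were the receptor Notch2, the ligands Dll1 and Jag1 and the repressor Hey1. Notch2 was 9.27, 9.40 and 9.46 in wild-type mice and 8.41 to 8.76 (median 8.51) in leukemias, a difference of -0.82 (adjusted p = 0.00259). Hey1 fell from 8.74, 8.18 and 8.73 to a range of 5.99 to 7.19 (median 6.25), a difference of -2.10 (adjusted p = 0.00308). The ligands Jag1 and Dll1 differed by -2.13 (adjusted p = 0.00843) and -0.98 (adjusted p = 0.00702), in a thymus where ligands are made by stroma, whose epithelial list also fell (below); the part of stroma in these falls was not tested. In whole tissue, fewer cells of a type and less RNA per cell cannot be told apart. These 4 falls passed in each of the 9 fits that left out 1 array, but in the fit with all 3 groups Notch2 did not pass (0.0665), nor did Jag1 without 627 and 6889/1 together (0.0665). A second probe set of Notch2 differed by -0.05 and one of Jag1 by 0.09.

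Il2ra, the alpha chain of the IL-2 receptor and a marker of pre-T cells, split the leukemias. It was 6.64, 7.47 and 8.31 in wild-type mice, 7.12 in mouse 3767 and 7.75 in 6466/4, but 11.44 to 12.66 in the other 4 leukemias. Mice 3767 and 6466/4 overlapped the wild-type range and the difference of 3.13 (adjusted p = 0.139) did not pass. Of 16 genes of the pre-T stages (DN2 to DN4, before CD4 and CD8), 4 were higher and 0 lower, with a median of 0.52. That is 25% called against 17.2% of all genes. The called genes were Notch1, Notch3, Hes1 and Tfrc, the transferrin receptor, which was 10.92, 10.81 and 11.31 in wild-type mice and 12.14 to 13.07 (median 12.61) in leukemias, a rise of 1.62 (adjusted p = 0.00367). The 4 called genes passed in each fit without 1 array.

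**Figure D3:**
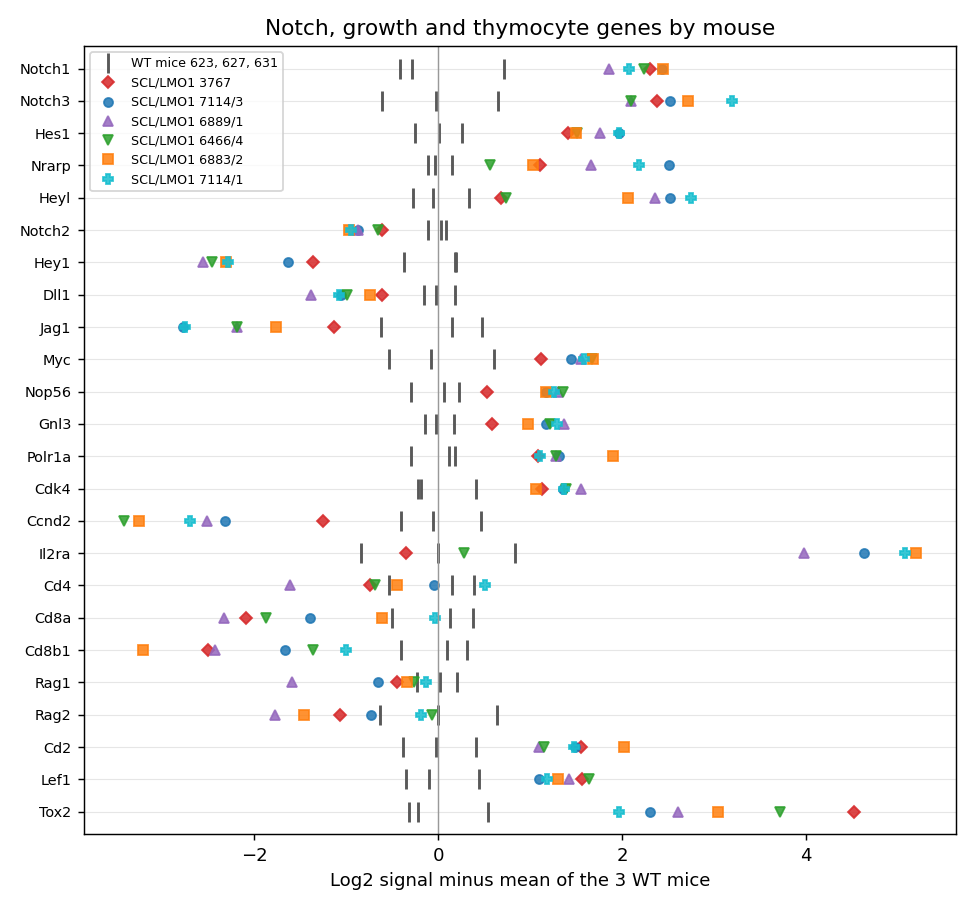
Notch genes, growth genes and thymocyte genes in each mouse, as log2 signal minus the mean of the 3 wild-type mice (bars). All 6 leukemias (symbols) are above the wild-type mice for Notch1, Notch3, Hes1, Myc and Cdk4, and they spread over more than 5 log2 units for Il2ra.

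Myc and most of the measured genes of ribosome biogenesis were higher. Of 20 genes, 13 were higher and 1 lower, 70.0% of the list against 17.2% of all genes, and 6 did not pass (median 0.64). Myc, the transcription factor that drives growth genes, was 8.45, 8.91 and 9.59 in wild-type mice and 10.10 to 10.66 (median 10.55) in leukemias, a rise of 1.51 (SE 0.23, adjusted p = 0.00475). All 6 leukemias were above the highest wild-type mouse, 631. Polr1a, the large subunit of RNA polymerase I, rose by 1.33 (adjusted p = 0.00377), the nucleolar GTPase gene Gnl3 by 1.10 (adjusted p = 0.00515) and Nop56, a box C/D ribonucleoprotein gene, by 1.13 (adjusted p = 0.00707). The 3 genes had no overlap between groups, and Nop56 and Gnl3 were lowest in mouse 3767 among the leukemias. The mean of the probe sets of Polr1a rose by 0.656. Mycn was lower, with a difference of -1.31 (SE 0.37, adjusted p = 0.0411), but lost its call without any 1 array other than leukemias 3767 and 7114/3 (adjusted p 0.0688 to 0.106), and its other probe sets differed by up to 0.14. Without wild-type 623 or 627, 7 genes were higher in either case, and without 627 and 6889/1 together 3, where Nop56 did not pass (0.0559), while the median stayed at 0.57, 0.62 and 0.60.

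Cell cycle genes were less uniform. Of 32 genes, 7 were higher and 1 lower (25% called against 17.2% of all genes), with a median of 0.48. Cdk4, the kinase of the step into S phase, was 10.08, 10.06 and 10.68 in wild-type mice and 11.33 to 11.82 (median 11.63) in leukemias, a rise of 1.31 (SE 0.17, adjusted p = 0.00244). Its partner cyclin gene Ccnd2 fell from 10.89, 11.40 and 10.53 to a range of 7.52 to 9.69 (median 8.33), a difference of -2.58 (SE 0.44, adjusted p = 0.00697). All 7 probe sets of Ccnd2 were lower, and it did not pass without 627 and 6889/1 together (0.0562). The order of Ccnd2 in wild-type mice (627, 623, 631) is that of the fat genes below, and the part of fat was not tested. The thymidylate synthase gene Tyms and the replicative helicase gene Mcm7 were higher by 0.79 (adjusted p = 0.0123) and 0.73 (adjusted p = 0.0166), calls that were lost without wild-type 627 (adjusted p 0.0554 and 0.0652), and for Mcm7 also without 623 (0.0691). Normal thymus is itself a dividing tissue, and the list averaged 10.21, 9.98 and 10.85 in wild-type mice 623, 627 and 631 and 10.55 to 10.90 in leukemias, so wild-type 631 lay within the leukemias. The count of higher genes moved both ways with the arrays used: it was 1 without wild-type 627, 2 without 623 and 19 without 631. It was 3 without leukemia 7114/3 or 6466/4, 4 without 6889/1 or 6883/2, 15 with array medians centred and 13 with array weights.

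More genes of the p53 pathway and the inhibitors of cyclin-dependent kinases were lower than higher. Of 18 genes, 6 were lower and 1 higher, 38.9% called against 17.2% of all genes (list median -0.30). In the fit with all 3 groups 2 were lower. Phlda3, a p53 target that restrains AKT, was 10.06, 11.13 and 9.11 in wild-type mice and 7.07 to 7.81 (median 7.40) in leukemias, a difference of -2.71 (SE 0.37, adjusted p = 0.00323). Phlda3 was the only one of the 6 falls that passed in each fit without 1 array, and its order in wild-type mice (627, 623, 631) is that of the fat genes below; the part of fat was not tested. Cdkn1a, the inhibitor p21, was 8.84, 8.41 and 8.35 in wild-type mice and 6.72 to 7.81 (median 7.53) in leukemias, a difference of -1.14 (adjusted p = 0.0195). Cdkn2b, the inhibitor p15, was lower, with a difference of -1.42 (adjusted p = 0.0108), and Trp53, the gene of p53 itself, was higher by 1.25 (adjusted p = 0.0139). The mean of the probe sets of Trp53 was higher by 0.605. Without wild-type 623 the adjusted p was 0.0838 for Cdkn1a, 0.0513 for Cdkn2b and 0.0592 for Trp53, and without 627 it was 0.0554 for Cdkn1a and 0.0545 for Trp53.

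Genes of CD4+CD8+ thymocytes, the stage named in the labels, were called in both directions, and which direction held more calls depended on the arrays used. Of 20 genes, 2 were higher and 4 lower, 30% called against 17.2% of all genes, with a median of -0.51. Cd8b1, the beta chain of CD8, fell from 13.18, 12.46 and 12.96 to a range of 9.65 to 11.86 (median 10.82), a difference of -2.03 (SE 0.46, adjusted p = 0.0187), though without wild-type 623 the adjusted p was 0.0772. Cd8a was 12.87, 12.0 and 12.62 in wild-type mice and 10.17 to 12.47 (median 10.86) in leukemias, a difference of -1.39 (adjusted p = 0.0873) that did not pass, with mouse 7114/1 inside the wild-type range. Cd4 was 9.21, 8.28 and 8.97 and 7.21 to 9.33 (median 8.26), with overlap and a difference of -0.50 (adjusted p = 0.417). The recombinase genes Rag1 and Rag2 differed by -0.57 (adjusted p = 0.206) and -0.88 (adjusted p = 0.178), and Rag1 was between 12.32 and 13.78 in all 6 leukemias. An array gives a signal for every gene, so these values alone do not place the leukemias at this stage. Among the leukemias, mouse 6889/1 had the lowest Cd4, Cd8a, Rag1 and Rag2. Slamf6, a costimulatory receptor, was higher by 1.35 (adjusted p = 0.0117), the calcium-regulated kinase gene Camk4 higher by 0.58 (adjusted p = 0.032) and Cd1d1, which presents lipids to NKT cells, lower, with a difference of -1.22 (adjusted p = 0.0311). Slamf6 passed without any 1 array but not in the fit with all 3 groups (0.219) or without 627 and 6889/1 together (0.0689). Camk4 did not without wild-type 623 or 627 or leukemia 7114/3, 6883/2 or 7114/1 (adjusted p 0.0515 to 0.122), and Cd1d1 only without wild-type 631 or leukemia 3767 or 7114/1 (otherwise 0.056 to 0.121). Without wild-type 623, 1 gene of the list was higher and 0 lower, and without 627 there were 1 and 2. Without leukemia 6889/1 or 6466/4, 2 were higher and 1 lower, and without 6883/2 there were 1 and 1. The list median was below 0 in each of these fits.

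Few genes of the T-cell receptor machinery were called on the deposited scale. Of 20 genes of the receptor complex and its signalling, 2 were higher and 0 lower (median 0.33), and with array medians centred 8 were higher. The called share on the deposited scale, 10%, was below the 17.2% of all genes. The adhesion receptor gene Cd2 was 10.35, 9.99 and 10.78 in wild-type mice and 11.47 to 12.39 (median 11.85) in leukemias, a rise of 1.46 (adjusted p = 0.00517) without overlap. Zap70, the kinase that relays the receptor signal, was higher by 0.84 (adjusted p = 0.0139), with an adjusted p of 0.0523 without wild-type 623. Cd3d, Cd3e, Cd3g, Lck and Lat were among the 18 genes that did not pass.

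Of 24 transcription factor genes of the T lineage, 5 were higher and 1 lower, 25% called against 17.2% of all genes, with a median of 0.21. Tox2, an HMG-box factor of the T lineage, was 7.73, 7.63 and 8.50 in wild-type mice and 9.91 to 12.47 (median 10.78) in leukemias, a rise of 3.02 (SE 0.53, adjusted p = 0.00775), highest in mouse 3767. Lef1, the partner of beta-catenin, rose by 1.37 (adjusted p = 0.00319) from 11.28, 11.02 and 11.82 to a range of 12.47 to 13.01 (median 12.73), and Ikzf1 (Ikaros) by 0.83 (adjusted p = 0.0122). Zbtb7b, which fixes the CD4 helper fate, was lower, with a difference of -0.71 (adjusted p = 0.0146). For those 4 genes the groups did not overlap, and the calls held without any 1 array. Lef1 did not pass in the fit with all 3 groups (0.289), and Tox2 and Ikzf1 did not without 627 and 6889/1 together (0.0535 and 0.0548). In these fits 2 genes and 1 gene of the list were higher. Tcf3 and Tcf12, already described, complete the higher genes. Zbtb7b and Ly6a were also the 2 lower genes among 20 genes of selected and mature T cells, of which 0 were higher (median -0.06, or 0.16 with 4 higher once array medians were centred). On the deposited scale 10% of that list was called, against 17.2% of all genes. Ly6a, the surface antigen Sca-1, fell from 12.63, 12.23 and 11.76 to a range of 10.03 to 10.68 (median 10.36), a difference of -1.85 (SE 0.22, adjusted p = 0.00195), and did not pass in the fit with all 3 groups (0.0628).

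Genes of early progenitors did not rise as a group. Of 16 genes, 4 were lower and 1 higher, 31.2% called against 17.2% of all genes (median -0.30). Meis1, a HOX cofactor of stem cells, fell from 8.06, 7.71 and 7.14 to a range of 4.63 to 6.04 (median 4.86), a difference of -2.62 (SE 0.32, adjusted p = 0.00234), and Cd34 from 9.71, 9.70 and 8.12 to a range of 6.94 to 7.68 (median 7.19), a difference of -1.94 (SE 0.35, adjusted p = 0.0086). Meis1 and Cd34 passed without any 1 array, although Cd34 did not without 627 and 6889/1 together (0.0668), vessels also make Cd34, and another probe set of Meis1 differed by 0.10. Mef2c and Bcl11a were lower, with differences of -1.30 (adjusted p = 0.0242) and -2.04 (adjusted p = 0.0377), and Ikzf2 (Helios) was higher by 1.12 (adjusted p = 0.0465). Those 3 calls were lost without wild-type 623 and also without 627, for Bcl11a without leukemias 6889/1, 6466/4, 6883/2 or 7114/1 too, and for Ikzf2 without any 1 array other than 7114/1 (adjusted p 0.092 to 0.104, 0.059 to 0.132 and 0.057 to 0.182). Kit, the stem cell factor receptor, was 7.20, 7.05 and 7.07 in wild-type mice and 5.48 to 8.38 (median 6.24) in leukemias, with overlap and the highest value in mouse 6883/2. Among 10 Hoxa genes 3 were lower and 0 higher, 30% called against 17.2% of all genes (median -0.16, or 0.07 with array medians centred and 0.02 after quantile normalization). Hoxa2 was lower, with a difference of -0.54 (adjusted p = 0.00983), at signals of 5.49 or less, and did not pass without 627 and 6889/1 together (0.058). Hoxa5 was lower with one of -0.90 (adjusted p = 0.0382), a call kept only without wild-type 631 (otherwise 0.0582 to 0.0973).

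The signalling, survival and sugar metabolism lists had called shares from 10.5% to 21.1%, against 17.2% of all genes. With array medians centred, 7 JAK-STAT, 8 PI3K and 7 glycolysis genes were higher. On the deposited scale, of 19 genes of the IL-7 receptor and JAK-STAT pathway 2 were higher and 0 lower (median 0.12), and without leukemia 6883/2 1 was higher and 3 lower. Stat3 was higher by 1.01 (adjusted p = 0.0132) and Stat5a by 1.87 (adjusted p = 0.0437). Stat5a was 10.84 to 11.57 in 5 leukemias but 8.93 in mouse 7114/1, inside the wild-type values of 8.88, 9.06 and 9.21, and it passed only without that mouse (otherwise 0.0669 to 0.132), while Stat3 did not pass without wild-type 623 or 627 (adjusted p 0.0532 to 0.055). Of 14 BCL2 family genes 1 was higher and 1 lower (median 0.07). The pro-apoptotic gene Bid rose by 1.09 (adjusted p = 0.00621) from 8.65, 8.59 and 9.12 to a range of 9.64 to 10.22 (median 9.78), and the pro-survival gene Bcl2l2 was lower, with a difference of -1.84 (adjusted p = 0.0241), a call lost without wild-type 623 or 627 (0.0868 to 0.103). The mean of the probe sets of Bcl2l2 differed by -0.448 and did not pass (adjusted p 0.147). Of 18 PI3K pathway genes 1 was higher and 1 lower (median 0.22). The kinase gene Akt1 was higher by 0.58 (adjusted p = 0.0274), and it lost its call without any 1 of 5 arrays (wild-type 623 and 627, leukemias 7114/3, 6466/4 and 6883/2; adjusted p 0.0504 to 0.112). Of 19 genes of glycolysis and the hypoxia response 2 were higher and 2 lower (median 0.21). Slc2a3, a high-affinity glucose transporter, was 9.15, 8.90 and 9.56 in wild-type mice and 10.88 to 11.43 (median 11.22) in leukemias, a rise of 1.97 (SE 0.18, adjusted p = 0.00106) that passed without any 1 array. The mean of the probe sets of Slc2a3 rose by 1.04. Pkm, Bnip3 and Car9 differed by 1.14 (adjusted p = 0.0279), -1.78 (adjusted p = 0.0395) and -0.32 (adjusted p = 0.0447), and none of these calls was stable. Pkm lost its call without any 1 of wild-type 623 and 631 and leukemias 7114/3 and 7114/1 (adjusted p 0.052 to 0.112), Bnip3 without any 1 array other than wild-type 631 and leukemias 3767 and 6889/1 (0.0578 to 0.12), and Car9 passed only without leukemia 7114/3 (otherwise 0.0624 to 0.139).

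Many interferon response genes were lower in the leukemias. Of 17 genes, 9 were lower and 0 higher, 52.9% of the list against 17.2% of all genes, and the median was -1.34. Gbp2, an interferon-induced GTPase, was 11.26, 11.21 and 10.44 in wild-type mice and 8.86 to 9.82 (median 9.39) in leukemias, a difference of -1.58 (SE 0.26, adjusted p = 0.00617). Xaf1, Oasl2 and Ifit3 fell by 2.12, 2.85 and 2.36 on the log2 scale (adjusted p 0.00621, 0.00739 and 0.00761), without overlap of the groups; a second probe set of Xaf1 differed by 0.16. The list averaged 9.48, 8.46 and 8.61 in wild-type mice 623, 627 and 631, highest in 623, and 7.07 to 8.0 in leukemias, highest in mouse 3767. Without mouse 623 the list had 4 genes lower and a median of -0.98. The 4 genes named passed without any 1 array. In the fit with all 3 groups the list had 3 genes lower, and Gbp2 and Oasl2 did not pass (0.117 and 0.0677).

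Of 11 genes of MHC class I presentation, 2 were lower and 0 higher (median -0.52), and with array medians centred 3 were higher. The called share, 18.2%, was near the 17.2% of all genes. H2-K1, a class I heavy chain, was 13.43, 13.35 and 12.94 in wild-type mice and 10.76 to 11.67 (median 11.33) in leukemias, a difference of -2.0 (SE 0.21, adjusted p = 0.00156), and all 3 of its probe sets were lower. H2-D1 was lower, with a difference of -3.26 (SE 0.26, adjusted p = 0.000634) on its brightest probe set, but its other 3 probe sets differed upward, by as much as 1.94, and the mean of its probe sets did not pass (0.558). These genes are near-identical members of a family that differs between mouse strains, the strains are not given in the labels, and the part of strain was not tested.

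Some immediate-early and heat-shock genes, which answer to tissue handling, were lower. Of 13 genes, 4 were lower and 0 higher, 30.8% called against 17.2% of all genes (median -0.55). The list averaged 8.55, 8.53 and 8.55 in wild-type mice and 7.21 to 8.35 in leukemias. Jun fell by 2.89 (adjusted p = 0.00707) from 8.15, 9.04 and 7.48 to a range of 4.21 to 6.38 (median 5.19), while Hspa1a and Hspa1b differed by -1.50 (adjusted p = 0.00439) and -2.92 (adjusted p = 0.0137). For Jun the wild-type mice ran in the order of the fat genes below, and the part of fat was not tested. Jund was lower, with a difference of -1.03 (adjusted p = 0.0326), with a second probe set at 0.29, and it lost its call without any 1 array other than leukemias 3767 and 6889/1 (0.0516 to 0.0999), while Hspa1b did not pass without wild-type 623 (0.0579) and Hspa1a did not in the fit with all 3 groups (0.098). The part of handling in other differences was not tested.

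Transcripts of thymic epithelium, the stroma that nurses thymocytes, were far lower in 5 of the 6 leukemias. Of 21 epithelial genes, 15 were lower and 0 higher, 71.4% called against 17.2% of all genes (median -2.01), and all 21 differed downward. The list averaged 9.01, 8.88 and 9.38 in wild-type mice, 6.10 to 6.64 in 5 leukemias and 8.43 in mouse 3767. Prss16, a protease of cortical epithelium, was 12.83, 12.47 and 12.81 in wild-type mice, 11.69 in mouse 3767 and 5.79 to 6.28 in the others. The keratin gene Krt8 had the same split, with 12.03, 11.90 and 12.63 in wild-type mice, 11.77 in 3767 and 4.46 to 7.56 in the others, and Ccl25, the chemokine that draws progenitors in, was 11.78 in 3767 and 6.46 to 7.02 in the others. For these 3 genes mouse 3767 was nearer to normal thymus than to the other leukemias. Other epithelial genes of mouse 3767 lay further below wild type: Psmb11 was 8.20 against 9.61, 9.05 and 10.74, Pax1 was 7.29 against 9.02, 8.62 and 9.35 and Kitl was 7.85 against 9.75, 10.08 and 9.54. For Kitl the wild-type mice ran in the order of the fat genes below, and the part of fat was not tested. Genes that passed without any 1 array were Kitl, the ligand of Kit (-2.44, adjusted p = 0.00106), the epithelial transcription factor genes Pax1 (-3.27, adjusted p = 0.00282) and Fezf2 (-2.06, adjusted p = 0.00775), the endocytic receptor gene Ly75 (-1.43, adjusted p = 0.00622) and Psmb11, a proteasome subunit particular to cortical epithelium (-4.92, adjusted p = 0.00915). The mean of all probe sets differed by -1.15 for Kitl, -1.96 for Pax1 and -2.37 for Ccl25. Prss16 and, on its brightest probe set, Ccl25 differed by -5.73 (adjusted p = 0.0153) and -5.12 (adjusted p = 0.0155). Without wild-type 623 or 627 their adjusted p was 0.0524 to 0.0599 and 0.051 to 0.0604. Krt8 lost its call without any 1 array other than leukemias 3767 and 6883/2 (adjusted p 0.0598 to 0.0984), and without mouse 3767 its difference was -6.73 (adjusted p = 0.00123). Foxn1, the master regulator of this epithelium, was near the bottom of the scale on its brightest probe set in both groups (4.41, 4.95 and 5.12 in wild-type mice, 4.49 to 4.93 in leukemias), while its other probe set was lower, with a difference of -1.95. Without wild-type 623 or 627 the list had 8 and 9 genes lower. Ly75 did not pass in the fit with all 3 groups (0.129), nor Fezf2 without 627 and 6889/1 together (0.0533). Without mouse 3767, 16 genes of the list were lower with a median of -2.28. Over all genes, mouse 3767 had the highest signal of the 6 leukemias in 16.9%, and among the 1857 lower genes in 41.2%.

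Adipocyte genes were among the genes that fell furthest. Of 14 white adipocyte genes 13 were lower, 92.9% called, with a median of -3.18. Of 11 brown adipocyte genes 5 were lower, 45.5% called (median -2.74), against 17.2% of all genes. In either list 0 were higher. The white list averaged 11.07, 12.41 and 9.36 in wild-type mice 623, 627 and 631 and 7.18 to 8.26 in leukemias, and the brown list 8.20, 10.81 and 6.40 and 5.19 to 5.93. Every wild-type mouse was above every leukemia on both lists, but wild-type 627 exceeded 631 by more than the distance from 631 to the leukemias. Adipoq, the adipocyte hormone adiponectin, was 13.39, 14.06 and 11.96 in wild-type mice and 7.38 to 10.52 (median 8.44) in leukemias, a difference of -4.53 (SE 0.66, adjusted p = 0.00403). Retn (resistin), the lipid-droplet gene Cidec and the fatty acid carrier Fabp4 fell by 4.34, 4.56 and 2.37 log2 units (adjusted p 0.00177, 0.00568 and 0.00541). Ucp1, the uncoupling protein of brown fat, was 10.63, 13.41 and 6.89 in wild-type mice and 4.23 to 5.54 (median 4.38) in leukemias, a difference of -5.77 (SE 1.12, adjusted p = 0.011) with a wide spread among wild-type mice. Cox8b, a cytochrome oxidase subunit of brown fat and muscle, fell by 4.60 (adjusted p = 0.0108), and its relative Cox7a1 was lower, with a difference of -3.22 (adjusted p = 0.0398), a call kept only without wild-type 631 (otherwise 0.055 to 0.104). Without wild-type 627 the white list had 11 genes lower and a median of -2.37, and the brown list 4 and -1.51. Without wild-type 623 there were 7 and 3 genes lower, and without 631 the brown list had 8 lower and a median of -4.20.

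The 15 largest falls without overlap between groups, sex-linked genes and unnamed symbols left out, followed the same wild-type order, 627 above 623 above 631, except for Prss16 and Krt8. Krt18, whose groups overlap, fell as far and did not follow that order either. Rbp4, the retinol carrier made by liver and fat, was 11.24, 12.79 and 9.25 in wild-type mice and 4.12 to 5.44 (median 4.45) in leukemias, a difference of -6.50 (SE 0.65, adjusted p = 0.00142). Thrsp, a regulator of lipid synthesis, fell by 6.32 (adjusted p = 0.00156), although 1 of its 3 probe sets differed by 0.006. The lipid-making enzyme genes Scd1 and Me1 differed by -5.56 (adjusted p = 0.000581) and -5.50 (adjusted p = 0.00156). Scd1 was 14.43, 14.75 and 13.31 in wild-type mice and 7.52 to 9.35 (median 8.65) in leukemias, so all 3 wild-type mice were far above. Tmem45b, the carboxylesterase gene Ces1d, Gnai1, Aldh1a7, the brown fat gene Cidea, the amylase gene Amy1, the acute-phase protein gene Orm1 and Cdo1, which breaks down cysteine, fell by 5.23 to 6.0 log2 units. With Ucp1, Prss16 and Krt8 these complete the 15 falls, and only Prss16 and Krt8 among them lost a call without 1 array. Over all genes 18.1% ran in the order 627, 623, 631 in wild-type mice, against 54.3% of the lower genes, 62.2% of those at least 2-fold lower and 3.41% of the higher genes. That order was read from these same arrays and is a description of them; the part of fat in the fall of other genes was not tested.

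**Figure D4:**
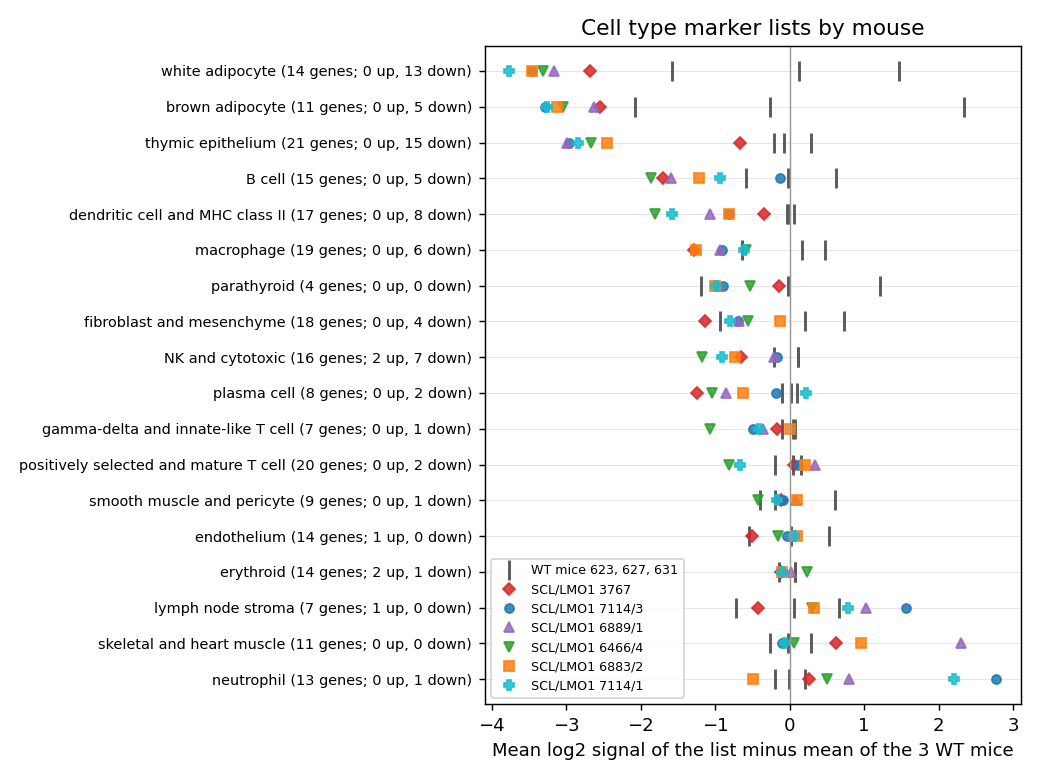
Mean log2 signal of each cell type marker list in each mouse, minus the mean of the 3 wild-type mice (bars); symbols are the 6 leukemias, and the counts are members higher and lower by the test. Fat lists are the lowest, mouse 3767 stands apart from the other leukemias on thymic epithelium, mice 7114/3 and 7114/1 on neutrophils and mouse 6889/1 on muscle.

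Other stromal lists had called shares from 7.14% for endothelium to 22.2% for fibroblasts, against 17.2% of all genes. Of 18 fibroblast genes 4 were lower (median -0.72), and the list averaged 9.74, 10.26 and 8.60 in wild-type mice and 8.39 to 9.41 in leukemias, so the groups overlapped. Decorin (Dcn) fell from 13.30, 13.31 and 12.17 to a range of 9.94 to 11.03 (median 10.72), a difference of -2.28 (SE 0.31, adjusted p = 0.00318). The matrix genes Dpt and Lum and the fibroblast marker Pi16 were lower, with differences of -2.38 (adjusted p = 0.00882), -2.74 (adjusted p = 0.0146) and -1.54 (adjusted p = 0.0097), and Lum did not pass without wild-type 623 or 627 (0.061 to 0.0613). Dcn did not pass in the fit with all 3 groups (0.104), nor Dpt and Pi16 without 627 and 6889/1 together (0.0562 and 0.0663). The list had a median of -0.24 without 627, and 9 genes lower with a median of -1.27 without 631. Of 14 endothelial genes 1 was higher and 0 lower (median -0.03, or 0.20 with array medians centred). Without wild-type 631, 4 endothelial genes were lower, and with array medians centred 5 were higher. Of 9 smooth muscle genes 0 were higher and 1 lower (median -0.26, or 0.26 without wild-type 627). The adhesion molecule gene Pecam1 was higher by 0.89 (adjusted p = 0.0187), lost without wild-type 623 or 627 (0.0643 to 0.0826). Myh11 was lower, with a difference of -0.92 (adjusted p = 0.032), lost without any 1 array other than wild-type 631 and leukemia 3767 (0.0506 to 0.129), and its other probe set differed by 0.12. None of 4 parathyroid and 11 muscle genes passed (medians -0.44 and 0.46); the parathyroid list was highest in wild-type 623 at 7.21 and the muscle list in leukemia 6889/1 at 7.37.

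NK and cytotoxic genes were called more often lower than higher. Of 16 NK and cytotoxic genes 7 were lower and 2 higher, 56.2% called against 17.2% of all genes (median -0.87). The NK receptor gene Klrk1 fell from 8.13, 7.24 and 7.33 to a range of 5.06 to 5.64 (median 5.30), a difference of -2.25 (SE 0.21, adjusted p = 0.00118), and Klre1 and the transcription factor gene Tbx21 differed by -1.06 (adjusted p = 0.00643) and -1.60 (adjusted p = 0.00925). Gzma, the protease granzyme A, moved the other way, from 11.03, 10.59 and 11.69 to a range of 12.66 to 13.37 (median 13.02), a rise of 1.93 (SE 0.24, adjusted p = 0.00242) with every leukemia above every wild-type mouse. In the fit with all 3 groups Gzma and Klre1 did not pass (adjusted p 0.306 and 0.239), and the list had 1 gene higher and 3 lower. Without wild-type 623 it also had 1 higher and 3 lower. Perforin (Prf1) was higher by 0.68 (adjusted p = 0.0208), lost without wild-type 623 or 627 (0.0738 to 0.0844), and its other probe set differed by -0.05. Of 7 genes of gamma-delta and innate-like T cells, only the transcription factor gene Maf was called, 14.3% of the list (median -0.70). Maf was lower, with a difference of -2.07 (adjusted p = 0.00471), or -1.06 over the mean of its probe sets.

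Some genes of antigen-presenting cells were lower as well. Of 17 dendritic cell and MHC class II genes 8 were lower and 0 higher, 47.1% called against 17.2% of all genes (median -0.91). List averages were 8.68, 8.67 and 8.76 in wild-type mice and 6.89 to 8.35 in leukemias. The lectin gene Cd209a fell by 1.77 (adjusted p = 0.00501) and passed without any 1 array, but not in the fit with all 3 groups (0.152), where the list had 1 gene lower. The class II genes H2-Ab1 and H2-Aa and the interferon-induced Bst2 were lower, with differences of -2.23 (adjusted p = 0.0221), -1.50 (adjusted p = 0.0267) and -1.34 (adjusted p = 0.0222). Without wild-type 623 their adjusted p was 0.0826, 0.0992 and 0.0934, and without 627 it was 0.0697 for H2-Ab1 and 0.092 for H2-Aa; the list then had 2 genes lower in either case, and 4 without leukemia 7114/3 or 6889/1 and 5 without 6466/4, 6883/2 or 7114/1. H2-Ab1 was lowest in mice 6466/4 and 7114/1 (8.72 and 9.02) and highest among leukemias in 3767 (11.37). Of 19 macrophage genes 6 were lower and 0 higher, 31.6% called (median -0.91). The haemoglobin scavenger receptor gene Cd163 fell from 8.77, 9.44 and 8.06 to a range of 4.55 to 6.83 (median 6.05), a difference of -2.82 (SE 0.50, adjusted p = 0.00806), and the receptor gene Axl differed by -1.10 (adjusted p = 0.00434). The iron exporter gene Slc40a1 was lower, with a difference of -2.11 (adjusted p = 0.0181), lost without wild-type 623 or 627 (0.0554 to 0.0722), and the list had 3 genes lower without either of these mice. Cd163 did not pass without 627 and 6889/1 together (0.0639).

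Some B-lineage genes were lower, unevenly among the leukemias. Of 15 B-cell genes 5 were lower and 0 higher (median -1.08), and of 8 plasma cell genes 2 and 0 (median -0.84). That is 33.3% and 25% called, against 17.2% of all genes. Ms4a1, the gene of CD20, was 10.88, 11.89 and 9.97 in wild-type mice, 10.06 in leukemia 7114/3 and 5.47 to 8.20 in the others, so that 1 leukemia overlapped and the difference was -3.54 (adjusted p = 0.0301). Fcrla, Blnk and the immunoglobulin gene Ighm were lower, with differences of -1.54 (adjusted p = 0.0254), -1.27 (adjusted p = 0.0419) and -1.36 (adjusted p = 0.0236). No B-cell gene passed without wild-type 623 or without 627 (for Ms4a1 the adjusted p was 0.0922 and 0.122). Ms4a1 also lost its call without leukemia 6889/1 or 6883/2, and Blnk without leukemia 3767, 6889/1, 6466/4 or 6883/2 (0.0647 to 0.162). The 11 probe sets of Ighm ran from -4.40 to 1.27. Xbp1, a factor of secretory cells, was lower, with a difference of -0.96 (adjusted p = 0.00892) and passed without any 1 array, though not without 627 and 6889/1 together (0.0515). Jchain was lower, with a difference of -2.01 (adjusted p = 0.0455), kept only without leukemia 7114/1 (otherwise 0.0571 to 0.139). Neutrophil genes averaged 8.88 and 8.31 in leukemias 7114/3 and 7114/1, 5.62 to 6.90 in the others and 5.91, 6.10 and 6.32 in wild-type mice, and of 13 genes 11 differed upward with a list median of 1.34, though 0 passed as higher and 1 as lower. The called share was 7.69%, against 17.2% of all genes. The lower gene was Mmp9, a gelatinase, at -1.27 (adjusted p = 0.0223), lost without wild-type 623 or 627 (0.0846 to 0.0925). Of 14 erythroid genes 2 were higher and 1 lower, 21.4% called against 17.2% of all genes (median 0.11). They were Tfrc, already described, Epor, higher by 0.57 (adjusted p = 0.0135), which did not pass without wild-type 623 (0.0565), and the carbonic anhydrase gene Car2, lower with a difference of -1.78 (adjusted p = 0.00426).

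With sex-linked genes, receptor segments and unnamed symbols left out, the 10 genes that differed most among the leukemias included Krt8 and Krt18, which followed the epithelium of mouse 3767. Krt18 was 12.17 in 3767 and 4.15 to 7.12 in the others, against 12.69, 12.12 and 12.79 in wild-type mice; its difference was -6.18 (adjusted p = 0.0322), the groups overlapped, and it passed only without 3767 (otherwise 0.0507 to 0.101). Ly6d, a surface antigen of lymphocytes and epithelium, was 12.78, 13.71 and 12.14 in mice 7114/3, 6883/2 and 7114/1, near the wild-type 12.11, 11.74 and 12.69, and 8.91, 6.21 and 7.67 in 3767, 6889/1 and 6466/4. The gluconeogenic enzyme gene Fbp1 had the same split, with 9.44, 10.19 and 10.88 in the first 3 mice and 4.67, 5.88 and 4.52 in the rest. Those 2 genes, Ly6d on chromosome 15 and Fbp1 on chromosome 13, separate the same mice as chromosome 15 below. Krt8, Krt18 and Ly6k, also among the 10 and on chromosome 15, did not follow that split. Fam135a was high in 6466/4 and 6883/2 (10.95 and 11.88) and 5.18 to 8.87 elsewhere. Ifi202b, a DNA sensor gene induced by interferon, was 12.21 in 6889/1 and 4.79 to 7.71 elsewhere. Ly6k was 11.40, 11.12 and 11.52 in 6889/1, 6466/4 and 6883/2 and 5.62 to 8.02 in the rest. The peptide transporter gene Slc15a2 was 11.03, 11.13 and 11.48 in 6889/1, 6466/4 and 7114/1 and 5.73 to 6.93 in the rest, and Bex1 ran from 3.87 in 6883/2 to 11.45 in 7114/3. Myh4, a myosin of fast muscle, was 10.12 in 6889/1 and 7.17 in 6883/2, the mice with the highest muscle list. These genes were chosen for their spread, and apart from Krt8 and Krt18 none passed between groups.

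In 3 leukemias the median over genes of chromosome 15, which carries Myc, was shifted upward. Among genes with a mean signal above 8, the median difference from the wild-type mean over 304 genes of chromosome 15 was 0.503 in mouse 7114/3, 0.435 in 6883/2 and 0.306 in 7114/1. It was 0.061 in 3767, 0.017 in 6889/1 and 0.045 in 6466/4. In the first 3 mice 78%, 77% and 71.1% of these genes were above 0, against 52.6% to 57.6% in the others. Mouse 7114/1 also had a shift of 0.287 over 264 genes of chromosome 14, where the other leukemias lay between -0.076 and 0.043. The 18 other chromosomes stayed between -0.122 and 0.088 in every leukemia. Over all genes, dim ones included, the chromosome 15 medians were 0.126, 0.111 and 0.088 in the same 3 mice. Of the genes of chromosome 15, 11.5% were called higher against 8.23% of all genes, and Myc was 10.42, 10.66 and 10.57 in the 3 shifted mice and 10.10, 10.54 and 10.66 in the others, so the rise of Myc was seen with and without the shift. Mice 7114/3 and 7114/1 share the first part of their number. DNA was not measured, and positions along the chromosome were not examined. The part of these shifts in the calls on chromosome 15 was not tested.

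**Figure D5:**
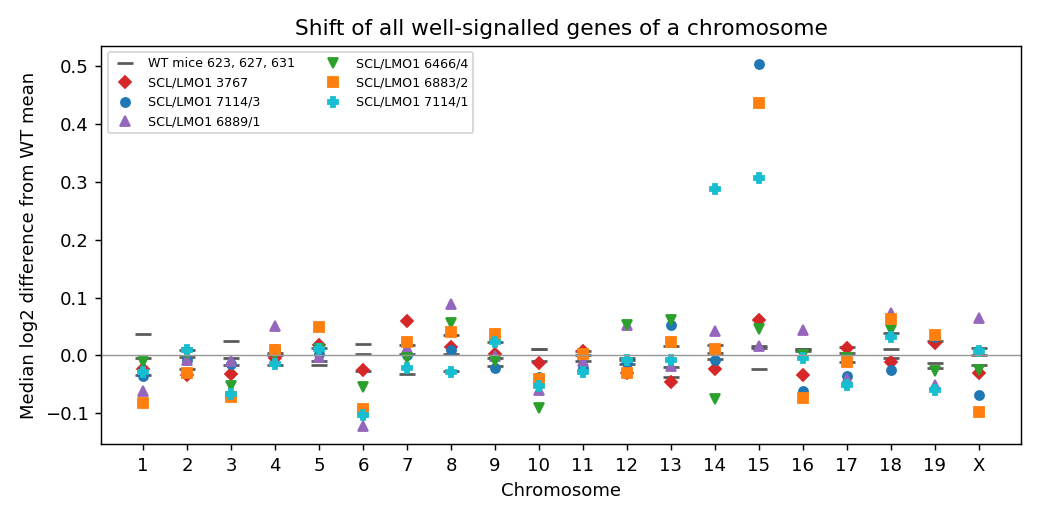
Median log2 difference from the wild-type mean over the genes of each chromosome with a mean signal above 8, after centring each array; symbols are the 6 leukemias and bars the wild-type mice. Only chromosome 15 in mice 7114/3, 6883/2 and 7114/1 and chromosome 14 in mouse 7114/1 lie above 0.2.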

How the data were processed

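RNA of 9 thymuses was hybridised to Affymetrix Mouse430_2 arrays, 1 array per mouse, and the authors deposited log2 signals per probe set, per the file headers. The summarisation and normalization behind those values are not given in the sources used here, so a step that equalised arrays would limit shifts of all genes. Of 45101 probe sets, 64 are controls and 38089 carry 1 gene symbol, 6948 none and 0 several in the deposited annotation; 35121 were matched by Entrez identifier to the RefSeq gene list of GRCm38.p6, which updated 1813 symbols and gave chromosomes. The probe set with the highest mean over all 18 arrays stood for each of 20672 genes. In the per-gene tables, 36 per-array columns that could not be tied to a sample were not used.

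Groups were compared with limma 3.58.1 (lmFit and eBayes, R 4.3.3) on the 9 arrays, with Benjamini-Hochberg adjustment over all genes and a threshold of 0.05; a gene is called higher or lower when it passes. The fit was tested on simulated data. Tables and figures were made with Python 3.11.15, pandas 2.3.3 and matplotlib 3.10.9. The 39 gene lists hold 559 genes, of which 532 were measured; members and lists were chosen with earlier results of these data known. Genes named are the 15 largest called rises and 15 largest falls without overlap, the brighter group averaging above the all-gene median, and without receptor segments, sex-linked genes or unnamed symbols. To these come up to 4 called genes per list by adjusted p, called genes against a list's majority, defining members, and the 10 genes with the largest SD over the leukemias. Nrarp, Heyl, Psmb11 and Ccl25, and the 4 sex-linked genes, fall outside that rule and were chosen after their values were seen. Alternatives changed the scaling, the filter on dim genes, the probe set rule, the variance model, the arrays in the fit and the threshold. Some named members of the lists are not reported here.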

Additional observations from a re-analysis of the deposited data

Results flagged for a closer look

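Single leukemias stood apart from the other 5, by Dixon's criterion for 6 values, in 26 of 198 gene, list and chromosome values examined. The criterion marks about 1 in 20 independent values by chance, which is no yardstick for this share: these genes include 10 chosen for their spread among the same leukemias and groups that move together (epithelium, fat and sex-linked genes). Mouse 3767 was the high one for the epithelial genes Prss16 (11.691 log2 units), Krt18 (12.174), Pax1 (7.293), Fezf2 (5.983), Psmb11 (8.201) and Ccl25 (11.778) and for the mean of the thymic epithelium list (8.425). It was also high for the fat and metabolic genes Ucp1 (5.536), Fabp4 (11.955), Cidec (5.999), Me1 (7.356) and Aldh1a7 (5.922), for Meis1 (6.038) and for Oasl2 (6.902), and low for Nop56 (11.117). Mouse 6889/1 was low for Rag1 (12.319) and for the Y-linked genes Ddx3y (3.584), Kdm5d (2.853) and Eif2s3y (3.887), and high for Xist (13.029). Mouse 6883/2 was high for Polr1a (9.072) and Akt1 (9.533), and mouse 6466/4 for Hoxa2 (4.874). Mouse 7114/1 was low for Stat3 (9.656) and Stat5a (8.934) and high for the median shift of chromosome 14 (0.287).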

How the results depend on the processing

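Against 1701 genes higher and 1857 lower, centring array medians gave 7260 higher, the fit with all 3 groups 1042 higher, an adjusted p under 0.01 gave 347 and 673, and leaving out mice 627 and 6889/1 together 367 and 806. Leaving out 1 array gave 565 to 2389 higher (1077 without 7114/3, 1068 without 6466/4) and 921 to 2284 lower. The causes were not tested, beyond the smaller number of arrays where arrays were left out. Of 143 named genes called, 89 passed in all 9 fits that left out 1 array and 62 under every alternative run, and 0 changed direction. Most of these genes were named for large differences or small adjusted p in these same arrays. Over all genes, 433 of the 1701 higher and 804 of the 1857 lower passed in all 9 fits. With the mean of all probe sets 11 of the 143 named calls were lost, among them Camk4 (0.25, adjusted p 0.213) and Bcl2l2 (-0.448, adjusted p 0.147). Genes not called that changed direction were Fam135a (-0.116 without 6883/2), Ifi202b (-0.218 without 627 and 6889/1, from -0.405 to 0.863 without 1 wild-type mouse, -0.941 without 6889/1 and -0.042 without 6883/2), Ly6k (-0.412 without 627 and 6889/1, -0.031 without 6889/1 and -0.055 without 6883/2), Slc15a2 (0.001 after centring, -0.455 without 631, 0.138, 0.377 and 0.307 without 3767, 7114/3 and 6883/2), Bex1 (-0.002 with mice 7114/1 and 7114/3 averaged and -0.191 without 7114/3) and Foxn1 (0.101 after centring, 0.038 with array weights, and from -0.332 to 0.026 without 1 wild-type mouse). Mice 7114/1 and 7114/3 as a random block could not be fitted. With these 2 mice averaged, 1276 genes were higher and 1545 lower, and 14 of the 143 named calls were lost. No paired analysis was possible because the groups do not share replicate numbers. Low signals cannot be told from background without detection calls.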
